A study of Homo sapiens with 8 samples.

Results

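The genes described here are 49 genes of the epithelial-mesenchymal state, taken by symbol from the 38637 genes listed in the expression table: 8 junction genes, 5 regulators of the epithelial programme, 5 transcription factors of the epithelial-mesenchymal transition (EMT), 4 mesenchymal genes, 7 genes of TGF-beta signalling, 7 collagen and matricellular genes, 8 integrin and laminin genes and 5 genes of pericellular proteolysis. All 49 were found. They were measured by poly(A) RNA sequencing in SW1990, an established human pancreatic adenocarcinoma cell line, in 8 libraries that form 4 groups of 2. The study's caption for these data names SW1990-luc, the line labelled with luciferase, while the sample titles name SW1990. Vector libraries (replicates 2 and 3) carried the empty vector, and EBF2-OE libraries (replicates 2 and 3) overexpressed EBF2, a transcription factor of the early B-cell factor family that the study examines as a reader of monomethylated lysine 4 of histone H3 (H3K4me1). Vehicle libraries (replicates 1 and 2) were mock treated, and GSK-LSD1 libraries (replicates 1 and 2) received GSK-LSD1, an inhibitor of the histone demethylase LSD1 (KDM1A), at a concentration labelled 2000 µM. The labels do not say whether libraries of a group came from separate cultures, so each p-value measures only the spread between these libraries, which may be technical. The duration of treatment is not given in the sources used here.

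In EMT, epithelial cells lose the adherens and tight junctions that tie them to their neighbours and gain the cytoskeleton, matrix and proteolytic genes of motile cells. SNAI, ZEB and TWIST factors repress junction genes, in part through E-boxes in their promoters, while ESRP, GRHL2 and OVOL factors maintain the epithelial state, and TGF-beta is a classical inducer of the transition. The SNAI factors are known to recruit LSD1 to the genes that they repress, and pancreatic carcinoma lines are known to range from epithelial to mesenchymal.

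Promoter windows of RefSeq (build GRCh38.p14, 250 bases before to 50 bases from a start site) were given for 37 of the 49 genes, as 70 windows. The windows were searched for the E-box CAGGTG bound by SNAI and ZEB factors, on either strand (CACCTG on the other), and for a palindrome of the type bound by EBF factors (TCCC, any 2 bases, GGGA, the same on both strands). By their letters the motifs cannot overlap each other. The E-box occurred in 16 of the 70 windows (22.9%, 95% Wilson interval 14.6 to 34.0), from 12 genes, beside 20.6% of all 35116 windows. The palindrome occurred in 2 windows, of TGFBR1 and ZEB1 (2.86%, interval 0.787 to 9.83), beside 1.21% of all windows. Both shares of the members had intervals that include the share of all windows. The intervals treat windows as independent although some genes have several, so they do not measure the spread over genes. A match is a description of letters, not a binding site.

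The stretches below are the parts of those windows before the start site that hold no annotated exon. They are shown for CLDN1 and ITGA2, the members called after GSK-LSD1, for the divergent promoter of COL4A1 and COL4A2, the pair described under EBF2-OE, and for ITGA6 and TGFBR1, which differed between the control groups and held motifs. Capitals mark a motif. CLDN1 lies on chr3:190322447-190322540 (minus strand), ITGA2 on chr5:52989102-52989339 (plus strand), the COL4A1 side of the shared stretch on chr13:110307158-110307257 (minus strand), ITGA6 on chr2:172427086-172427335 (plus strand) and TGFBR1 on chr9:99105325-99105574 (plus strand).
CLDN1: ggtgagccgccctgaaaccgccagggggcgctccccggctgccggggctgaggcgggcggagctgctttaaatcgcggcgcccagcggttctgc
ITGA2: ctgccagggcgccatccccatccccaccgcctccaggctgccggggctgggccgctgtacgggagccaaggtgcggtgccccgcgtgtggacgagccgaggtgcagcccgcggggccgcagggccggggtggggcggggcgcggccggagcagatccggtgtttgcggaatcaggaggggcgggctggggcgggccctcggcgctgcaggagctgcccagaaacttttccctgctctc
COL4A1 and COL4A2: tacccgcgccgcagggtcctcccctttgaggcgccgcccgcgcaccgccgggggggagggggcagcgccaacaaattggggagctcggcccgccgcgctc
ITGA6: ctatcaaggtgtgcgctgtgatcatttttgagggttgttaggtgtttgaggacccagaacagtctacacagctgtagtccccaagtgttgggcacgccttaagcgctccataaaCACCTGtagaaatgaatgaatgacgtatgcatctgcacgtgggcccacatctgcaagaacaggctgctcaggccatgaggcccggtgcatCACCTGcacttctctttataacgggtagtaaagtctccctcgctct
TGFBR1: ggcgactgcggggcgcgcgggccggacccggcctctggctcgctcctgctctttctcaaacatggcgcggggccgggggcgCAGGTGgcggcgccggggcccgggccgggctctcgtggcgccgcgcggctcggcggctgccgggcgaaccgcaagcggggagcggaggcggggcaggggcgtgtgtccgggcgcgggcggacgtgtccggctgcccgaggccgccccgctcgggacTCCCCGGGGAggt
The CLDN1, ITGA2 and COL4A1 stretches held neither motif, the ITGA6 stretch held 2 E-boxes, and the TGFBR1 stretch held 1 E-box and 1 palindrome. The TGFBR1 window was taken because it held the palindrome, so that match is no finding. Its start site, at base 99105575, is not the listed start of the gene, at base 99104038. The start sites of COL4A1 and COL4A2 lie 127 bases apart and point away from each other. By base composition, G and C made up 74.5% of the CLDN1 stretch and 82% of the TGFBR1 stretch, against 50.8% of the ITGA6 stretch.

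Total counts ranged from 20453362 to 27054876 per library. The overexpressed gene, EBF2, had 28 and 28 counts in Vector, 5818 and 90100 in EBF2-OE, 30 and 24 in Vehicle and 40 and 24 in GSK-LSD1, so both EBF2-OE libraries exceeded every other library but differed greatly from each other. The libraries of the overexpression experiment were also further apart across genes: edgeR's biological coefficient of variation was 19.0% in EBF2-OE against Vector and 5.87% in GSK-LSD1 against Vehicle. Where exons of a gene and of a gene on the opposite strand overlap, their reads cannot be told apart here. No strand setting is stated, and the library kit is not said to mark strand. By whole gene spans, 21 of the 49 members overlap such a partner, and how many share exons with it was not examined. For VIM, CLDN7, ITGB4 and ESRP2 the partner was itself well expressed, VIM-AS1 at 196 to 395 TPM (reads scaled to gene length and library total), ELP5 at 36.7 to 43.99, GALK1 at 47.7 to 84.9 and NFATC3 at 26.9 to 30.3. CLDN16, which overlaps CLDN1, stayed at or under 0.135 TPM. ZEB1-AS1, which overlaps ZEB1, was at 1.76 to 4.86 TPM in Vector and EBF2-OE and at 6.56 to 8.14 TPM in Vehicle and GSK-LSD1. Its part in the ZEB1 values was not tested.

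Across all groups the mesenchymal and matrix genes were expressed, while the epithelial genes ranged from absent to well expressed. Of the members, 40 were at or above 1 TPM in every library, 7 were under 1 TPM in every library and 2, CDH1 and EPCAM, were mixed. Levels are compared per length, in TPM. VIM (vimentin, the intermediate filament of mesenchymal cells) had the highest mean of the 49, at 911 to 1366 TPM. ITGB1 (the shared beta chain of most matrix-binding integrins) followed at 356 to 551 TPM, and COL4A2 (basement membrane collagen IV) ranged from 204 to 316 TPM. FN1 (fibronectin) stood at 74.99 to 120 TPM and CDH2 (N-cadherin) at 16.1 to 23.3 TPM. Against this, CDH1 (E-cadherin, the core adherens junction protein) was at 0.186 to 1.12 TPM and EPCAM (an epithelial surface adhesion molecule) at 0.249 to 1.42 TPM. Every library was therefore low in CDH1 and EPCAM, while other epithelial genes, given below, were expressed.

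The remaining epithelial members were split. OCLN (occludin) and CLDN3 (a claudin) of the tight junction were under 1 TPM in all 8 libraries, as were ESRP1, an epithelial splicing regulator, GRHL2, a transcription factor that maintains CDH1, OVOL1 and OVOL2, repressors of EMT genes, and the matrix protease MMP7. CLDN7 (45.5 to 121 TPM), CLDN4 (19.8 to 67.1 TPM), TJP1 (the junction scaffold ZO-1, 8.92 to 12.7 TPM), CLDN1 (2.81 to 8.43 TPM) and ESRP2 (34.1 to 44.1 TPM) were expressed. All 5 EMT factors were present. SNAI1 was the highest of them in every library, at 26.0 to 108 TPM, and ZEB2 the lowest, at 1.97 to 4.35 TPM, with ZEB1 (10.8 to 15.3 TPM), TWIST1 (8.21 to 18.9 TPM) and SNAI2 (5.56 to 26.1 TPM) between. The ranges of ZEB1, TWIST1 and SNAI2 overlapped one another, so no order among these 3 is given.

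**Figure D1:**
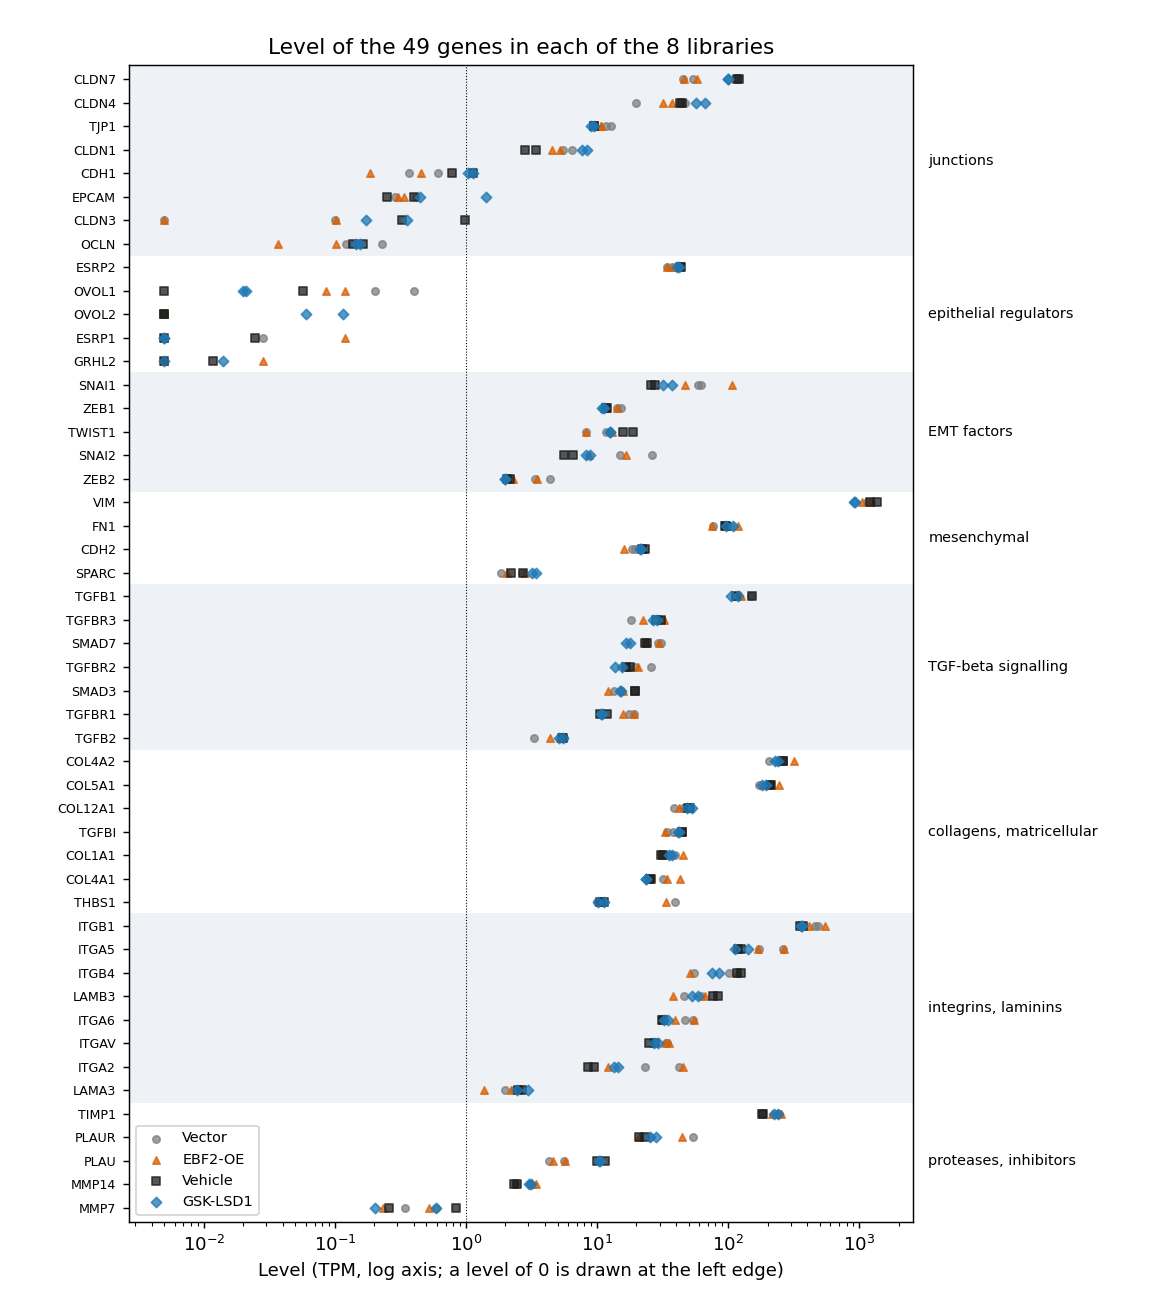
Level of each of the 49 genes (rows, grouped by role) in each of the 8 libraries, in TPM on a log axis, with the dotted line at 1 TPM. Each symbol is 1 library. Junction and epithelial regulator genes spread from 0 to over 100 TPM, while every mesenchymal, EMT factor, TGF-beta, collagen and integrin gene lies above 1 TPM in all libraries.

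The label of a pancreatic carcinoma line was checked against epithelial keratins and against other cell types. KRT8 (2186 to 3094 TPM), KRT18 (1516 to 3200 TPM) and KRT7 (459 to 841 TPM), keratins of simple and ductal epithelium, were high in every library. KRT19, a keratin that usually marks the pancreatic duct, was at 0 to 1.57 TPM, so with CDH1 and EPCAM 3 of the 6 epithelial markers were close to absent. The identity of the line was not tested beyond these markers. Summed levels of 9 fibroblast markers were 52.4 to 57.3 TPM in Vector, 52.2 to 67.9 in EBF2-OE, 58.9 to 59.7 in Vehicle and 63.9 to 66.3 in GSK-LSD1, with COL1A1, itself a member, as the largest part. PDGFRA, LUM, FAP and THY1 of that list were under 1 TPM throughout, and PDGFRB was at 5.36 to 8.35 TPM in Vector and EBF2-OE and 13.6 to 16.8 TPM in the other 4 libraries. Summed endothelial markers stayed at or under 5.04 TPM and summed leukocyte markers at or under 5.12 TPM, with CD3E at 0. The endothelial sum moved with the groups (4.88 to 5.04 TPM in Vehicle, 2.63 to 2.79 in GSK-LSD1 and at most 0.798 elsewhere), nearly all of it from CDH5, and its part in the results was not tested.

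GSK-LSD1 was compared with Vehicle to ask how these genes differed after treatment with this inhibitor of LSD1, which removes H3K4me1. The labelled concentration lies above those at which the study blotted H3K4me1 in this line. Whether differences came from inhibition of LSD1 or from other effects of the compound at that concentration was not tested. In this comparison 41 of the 49 members had enough counts to be tested, and the untested 8 were EPCAM, OCLN, CLDN3, ESRP1, GRHL2, OVOL1, OVOL2 and MMP7. A gene was called where the p of edgeR's quasi-likelihood test, adjusted after Benjamini and Hochberg, was under 0.05 and the fold exceeded 1.5. By this rule 2 members rose, CLDN1 and ITGA2, and 0 fell, as also with DESeq2, with limma and at an unadjusted p under 0.05 with the same fold limit. The share called was 4.88% of the members, beside 4.57% of all 16059 genes tested (2.53% higher and 2.04% lower). At an unadjusted p under 0.05, 21 of the 41 tested members passed at any fold, beside 32.7% of all genes. With the fold limit 6.76% of all genes passed. The median log2 fold change was 0.0013 over the 41 members and −0.0059 over all genes, and the counts were balanced in sign, with 21 positive and 20 negative values. In bulk RNA, fewer cells of a kind and less RNA per cell cannot be told apart.

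CLDN1 (claudin-1), a sealing protein of the tight junction, showed the largest change of the members. Its level was 2.81 and 3.40 TPM in Vehicle and 8.43 and 7.68 TPM in GSK-LSD1. Both treated libraries lay well above both controls, and the log2 fold change was 1.41 (SE 0.14, edgeR adjusted p = 0.00012), with 1.29 to 1.54 when any 1 of the 4 libraries was left out. Other junction genes moved less, and not in one direction. CLDN4, a claudin of secretory and ductal epithelium, was at 44.4 and 42.9 TPM in Vehicle and 57.2 and 67.1 TPM in GSK-LSD1, with a log2 fold change of 0.54 (adjusted p = 0.0014) that stayed under the fold limit. CLDN7, also a tight junction claudin, was lower, at 117 and 121 TPM against 100.1 and 99.9 TPM (log2 fold change −0.21, edgeR adjusted p = 0.027). CDH1 (0.20, interval −0.35 to 0.75) and TJP1 (−0.015, interval −0.18 to 0.15) did not pass. Among the untested junction genes, EPCAM was at 0.403 and 0.249 TPM in Vehicle and at 1.42 and 0.442 TPM in GSK-LSD1, where 1 library accounts for most of the gap. OVOL2 was listed at 0 in Vehicle and at 0.116 and 0.0602 TPM in GSK-LSD1, from 2 counts and 1 count. The only tested epithelial regulator, ESRP2, had a log2 fold change of −0.052 (interval −0.17 to 0.060).

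ITGA2, the alpha chain of the collagen-binding integrin α2β1, was the other member called. It was at 8.59 and 9.499 TPM in Vehicle and at 13.4 and 14.5 TPM in GSK-LSD1, without overlap, and its log2 fold change of 0.66 (SE 0.074, edgeR adjusted p = 0.00022) kept its call with any 1 library left out (0.61 to 0.72). When all 8 libraries shared 1 estimate of the spread, the fold was the same but the adjusted p was 0.64, and ITGA2 was no longer called. ITGB4 (the beta chain of the hemidesmosomal integrin α6β4) went the other way. It was at 118 and 125 TPM in Vehicle and at 74.7 and 84.8 TPM in GSK-LSD1 (log2 fold change −0.57, edgeR adjusted p = 0.00012), just short of the fold limit of 0.58, and it was called lower without Vehicle replicate 1 (−0.59) or without GSK-LSD1 replicate 2 (−0.64). LAMB3, a chain of the laminin-332 to which α6β4 binds, was likewise lower, at 84.0 and 77.0 against 52.9 and 59.4 TPM (−0.49, adjusted p = 0.00070). Their partner chains did not pass, with ITGA6 at 0.13 (interval −0.015 to 0.27) and LAMA3 at 0.11 (interval −0.15 to 0.38). ITGA5, ITGB1 and ITGAV, chains of fibronectin and vitronectin receptors, had log2 fold changes of 0.10, 0.029 and 0.13 and did not pass.

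The EMT factors differed in sign. SNAI1 (Snail) was at 26.0 and 27.7 TPM in Vehicle and 31.8 and 37.3 TPM in GSK-LSD1, and SNAI2 (Slug) at 6.54 and 5.56 against 8.25 and 8.84 TPM. Both were higher without overlap, with log2 fold changes of 0.39 (adjusted p = 0.018) and 0.53 (edgeR adjusted p = 0.027), under the fold limit. TWIST1 was lower, at 18.9 and 15.7 TPM in Vehicle against 12.5 and 12.5 TPM (log2 fold change −0.43, edgeR adjusted p = 0.041). ZEB1 (−0.065) and ZEB2 (−0.057) did not pass. SNAI2 would be called higher without Vehicle replicate 1 (0.67). These 3 genes passed by adjusted p alone, and 0 of the 5 EMT factors by the full rule. With DESeq2 SNAI1 (adjusted p = 0.055), SNAI2 (0.17) and TWIST1 (0.16) did not pass by adjusted p.

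Of the mesenchymal genes, VIM was lower, at 1366 and 1208 TPM in Vehicle and 911 and 921 TPM in GSK-LSD1 (log2 fold change −0.46, SE 0.060, edgeR adjusted p = 0.00060). The antisense gene VIM-AS1 was at 395 and 292 TPM in Vehicle and at 196 and 204 TPM in GSK-LSD1, and its part in the VIM values was not tested. CDH2 (−0.049, interval −0.20 to 0.0996) did not pass. FN1 (0.14) and SPARC (0.47), a collagen-binding matricellular protein, were higher in both treated libraries but did not pass, with adjusted p of 0.10 and 0.087 by edgeR.

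In TGF-beta signalling, 6 of 7 values were negative and 2 passed by adjusted p alone. SMAD3, the transcription factor activated by the receptor, was at 19.6 and 19.3 TPM in Vehicle and 15.3 and 14.9 TPM in GSK-LSD1 (log2 fold change −0.33, edgeR adjusted p = 0.0062). SMAD7, the inhibitory SMAD that TGF-beta itself induces, was at 23.3 and 24.3 against 17.8 and 16.7 TPM (−0.43, adjusted p = 0.0041). Both genes were lower in each treated library than in either control, so the activating and the inhibitory SMAD went the same way. The ligands TGFB1 (−0.20) and TGFB2 (0.015) and the receptors TGFBR1 (−0.019), TGFBR2 (−0.21) and TGFBR3 (−0.046) did not pass.

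Values of the matrix genes were small. Among the collagens and matricellular genes only COL1A1 (fibrillar collagen I) passed by adjusted p, at 30.5 and 31.8 TPM in Vehicle and 37.2 and 35.6 TPM in GSK-LSD1 (log2 fold change 0.26, edgeR adjusted p = 0.013). COL4A1, COL4A2, COL5A1, COL12A1, TGFBI and THBS1 lay between −0.13 and 0.044. TIMP1, an inhibitor of matrix metalloproteases, was at 182 and 186 TPM in Vehicle and 224 and 239 TPM in GSK-LSD1 (0.37, adjusted p = 0.00071), and PLAUR, the urokinase receptor, at 21.1 and 23.4 against 25.2 and 27.9 TPM (0.29, adjusted p = 0.031). PLAU (urokinase itself), at 0.0013, and MMP14 (a membrane-bound collagenase), at 0.40 with an edgeR adjusted p of 0.12, did not pass.

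By adjusted p with no limit on the fold, 15 of the 41 tested members passed, 8 higher and 7 lower. Of all genes 18.7% passed in either direction (9.86% higher and 8.87% lower). The groups did not overlap for 13 higher and 15 lower members, 68.3% of the 41, beside 60.2% of all genes (30% higher and 30.2% lower). Both counts were divided almost evenly between directions. By adjusted p alone the junction genes held 2 higher and 1 lower and the mesenchymal genes 0 higher and 1 lower. The 13 members that passed by adjusted p at a smaller fold did not pass when all 8 libraries shared 1 estimate of the spread, with edgeR adjusted p from 0.099 (VIM) to 0.82 (PLAUR) at nearly the same folds. With any 1 of the 4 libraries left out, CLDN4, TIMP1, ITGB4, LAMB3 and VIM passed by adjusted p each time, and each of the other 8 missed it at least once.

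**Figure D2:**
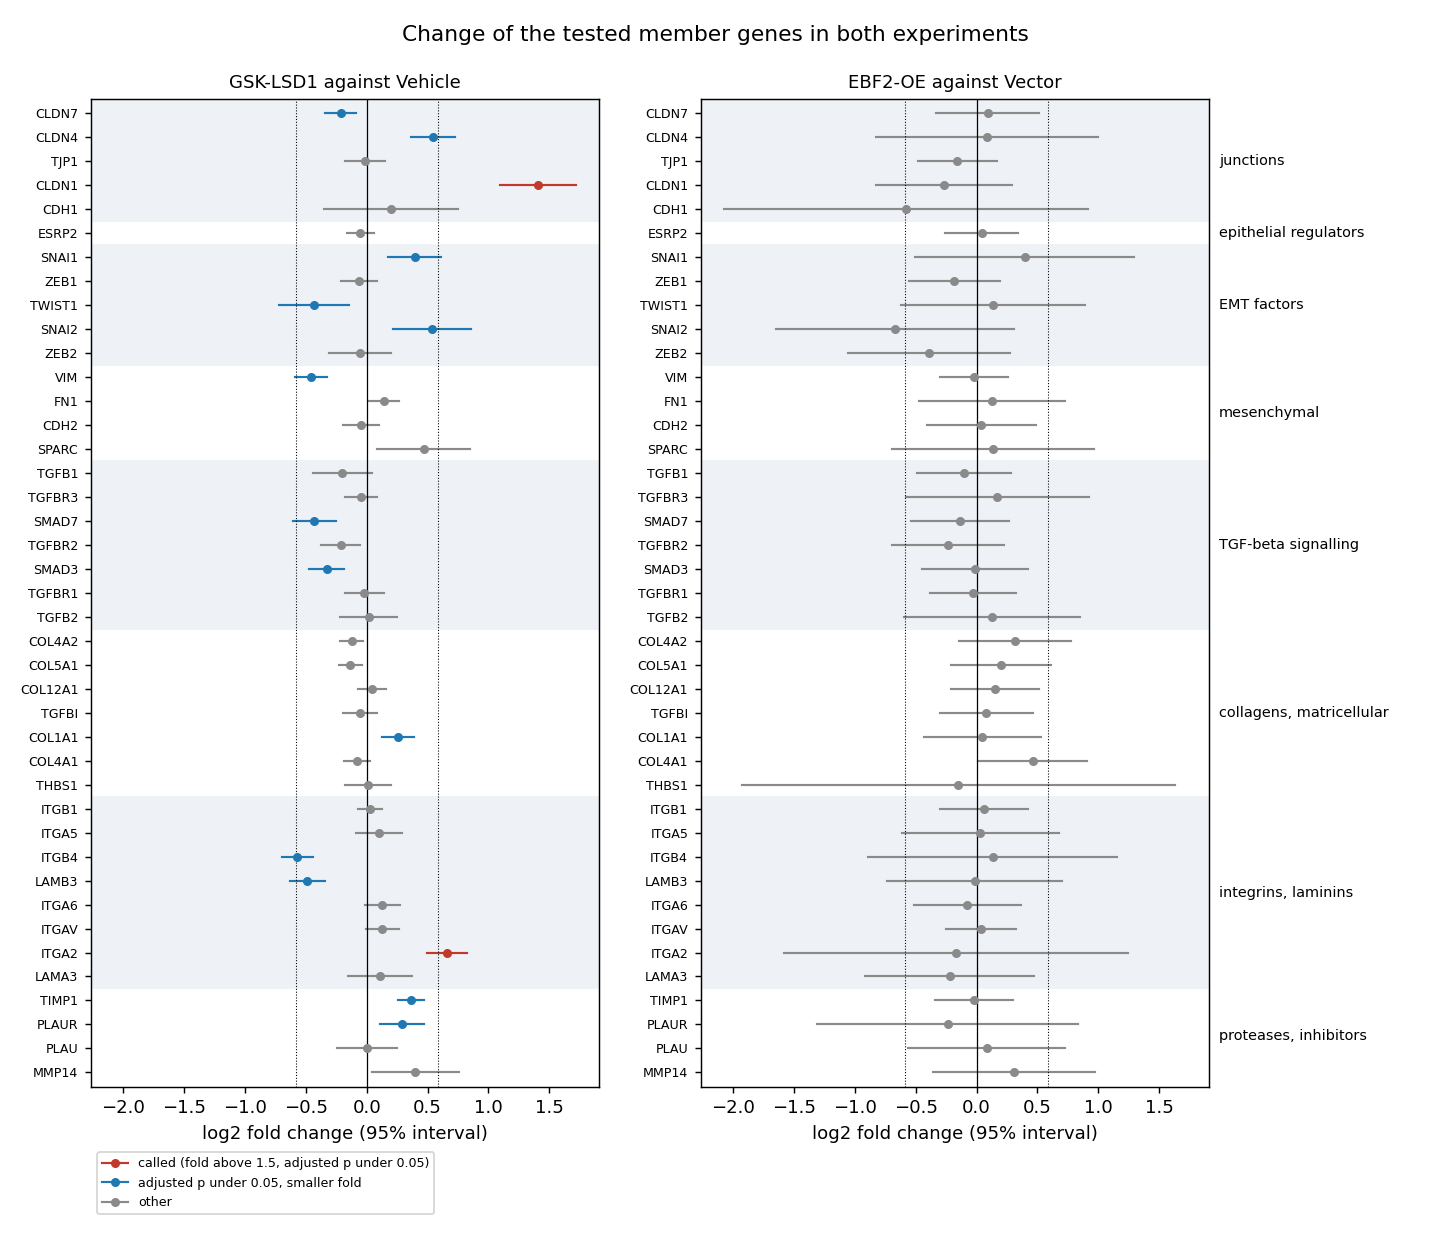
log2 fold change with its 95% interval for the 41 tested members, by role, in GSK-LSD1 against Vehicle (left) and EBF2-OE against Vector (right), on the same axis, with dotted lines at a 1.5-fold change. After GSK-LSD1, CLDN1 and ITGA2 (red) were called and a further 13 members (blue) passed by adjusted p alone, whereas all EBF2-OE values are grey with wider intervals.

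The wider pathway lists, chosen like the members with earlier results of these data known, gave the following counts after GSK-LSD1. Because of that choice their shares, here and between the control groups, are descriptions and do not test enrichment. Of 41 other epithelial genes, 36 were tested, 5 rose and 1 fell, 16.7%, beside 4.57% of all genes (2.53% higher and 2.04% lower). Risers at low level included PRSS8 (prostasin, an epithelial membrane protease), at 0.453 and 0.680 TPM in Vehicle and 2.27 and 2.17 TPM in GSK-LSD1, and SPINT2 (an inhibitor of such proteases), at 2.34 and 1.25 against 5.196 and 5.88 TPM. MAL2, a protein of apical transport, had a log2 fold change of 1.97 and CDH3 (P-cadherin) of 1.08, both past the edgeR call. KLF4, a factor of epithelial differentiation, fell from 134.9 and 134.6 TPM to 86.4 and 82.0 TPM.

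Of 15 other EMT factors, 13 were tested, 0 rose and 2 fell (15.4%, beside the 4.57% of all genes that holds for each list here): TWIST2, from 40.2 and 33.0 TPM to 20.5 and 21.7 TPM, and SOX4, from 69.7 and 63.6 TPM to 40.4 and 43.6 TPM. Of 34 other TGF-beta genes, 33 were tested, 1 rose and 3 fell (12.1%). The gene that rose was INHBA (an activin subunit), at or under 0.605 TPM in these 4 libraries. Those that fell were ID1 (a SMAD-responsive inhibitor of basic helix-loop-helix factors, log2 fold change −0.84), LTBP3 (which anchors latent TGF-beta in the matrix, −0.82) and TGFB1I1 (the focal adhesion protein Hic-5, −0.81). Of 46 other matrix genes, 43 were tested, 3 rose (CCN3, NID2 and COL4A3) and 1 fell (the collagen cross-linking enzyme LOXL4), 9.3%. Of 24 other protease genes, 21 were tested, 2 rose (PLAT, tissue plasminogen activator, and MMP3, stromelysin-1) and 1 fell (TIMP3, an inhibitor held in the matrix), 14.3%. Of 6 tested further integrin genes 0 were called by edgeR, 1 had an unadjusted p under 0.05 (ITGA7, −1.17), and their median log2 fold change was −0.0091. In EBF2-OE against Vector 0 genes of any of these lists were called by edgeR.

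EBF2-OE was compared with Vector to ask what the overexpressed factor changed. Of the 41 tested members 0 rose and 0 fell by edgeR, and 0% of all 15560 genes tested were called. DESeq2 and limma also called 0 members, and at an unadjusted p under 0.05 with no fold limit 1 member passed, COL4A1, beside 1.34% of all genes (0.951% with the fold limit). The smallest adjusted p over all genes was 0.21, and EBF2 itself was not called (log2 fold change 10.75, SE 1.55, adjusted p = 0.9998). The median log2 fold change was 0.038 over the members and 0.0035 over all genes. Intervals were wide: for 17 of the 41 members the 95% interval lay wholly inside a 1.5-fold change in either direction, against 28 of 41 after GSK-LSD1. For the other members in EBF2-OE a change of that size was within the interval.

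COL4A1, a chain of basement membrane collagen IV, was at 25.4 and 31.6 TPM in Vector and at 34.0 and 43.0 TPM in EBF2-OE. Both EBF2-OE libraries were above both controls, and the log2 fold change was 0.46 (interval 0.012 to 0.91, edgeR unadjusted p = 0.046, adjusted p = 0.9998). COL4A2, which shares its promoter, was at 204 and 251 TPM in Vector and 238 and 316 TPM in EBF2-OE, with overlap (0.32, interval −0.14 to 0.77). The groups also did not overlap for MMP14 (3.10 and 2.40 against 3.19 and 3.44 TPM, log2 fold change 0.31), CLDN1 (5.53 and 6.47 against 4.56 and 5.22 TPM, −0.27) and TJP1 (11.7 and 12.7 against 10.8 and 10.7 TPM, −0.16). These 4 members are 9.76% of the 41, beside 22.9% of all genes (12.1% higher and 10.8% lower). Of the 7 collagen and matricellular genes 6 had positive values, from 0.049 for COL1A1 upwards, and THBS1 was negative; none was called.

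None of the 5 EMT factors separated the EBF2-OE libraries from the Vector libraries. SNAI1 was at 58.6 and 61.6 TPM in Vector and at 46.6 and 108 TPM in EBF2-OE, so the controls lay between the overexpressing libraries. Its log2 fold change of 0.40 turned to −0.34 without EBF2-OE replicate 3, the library with 90100 EBF2 counts. SNAI2 was at 15.1 and 26.1 TPM in Vector and at 8.64 and 16.8 TPM in EBF2-OE (−0.67, interval −1.65 to 0.31), and ZEB2 at 3.35 and 4.35 against 2.27 and 3.49 TPM (−0.39, interval −1.05 to 0.27). For both, each EBF2-OE library was lower than the Vector library of the same number. ZEB1 (−0.18) and TWIST1 (0.14) overlapped as well. VIM (−0.020, interval −0.30 to 0.26), FN1 (0.13), CDH2 (0.040) and SPARC (0.14) did not separate the groups. CDH1, near its detection limit, was at 0.369 and 0.614 TPM against 0.186 and 0.455 TPM (−0.58, interval −2.08 to 0.91). Among the untested genes, OCLN was at 0.122 and 0.228 TPM in Vector and 0.103 and 0.0370 TPM in EBF2-OE, and OVOL1 at 0.399 and 0.203 against 0.119 and 0.0853 TPM. Both were lower without overlap, at no more than 17 counts in any of these libraries.

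**Figure D3:**
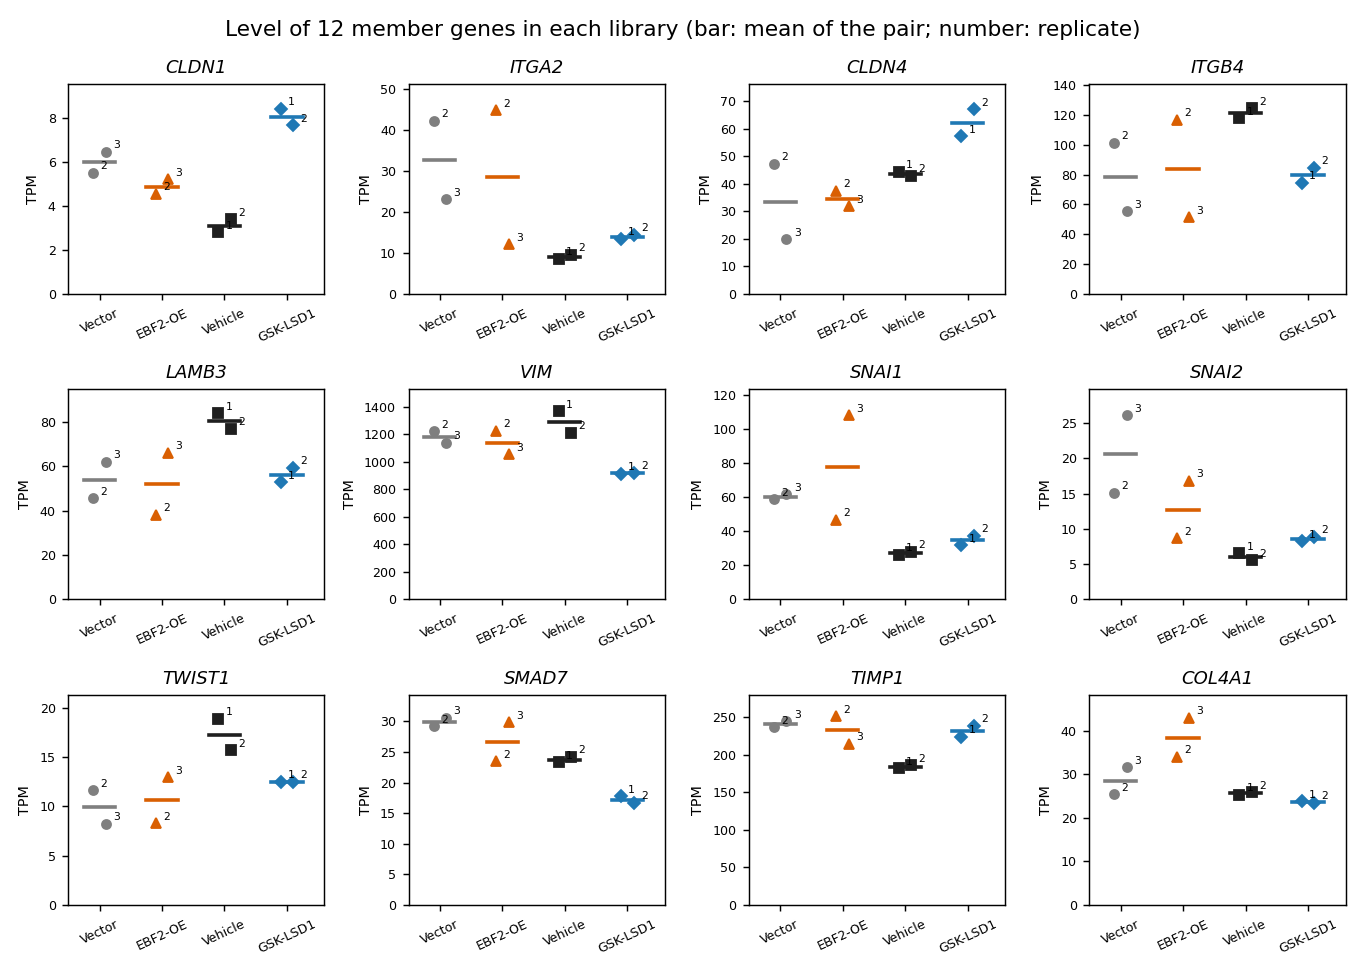
Level in TPM, from 0, of 12 member genes in each library, with the replicate number beside each point and a bar at the mean of the pair. CLDN1, CLDN4, ITGA2, TIMP1, SNAI1 and SNAI2 are higher in both GSK-LSD1 libraries than in both Vehicle libraries. ITGB4, LAMB3, VIM, TWIST1, SMAD7 and, by little, COL4A1 are lower, while most Vector and EBF2-OE pairs interleave.

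Whether the 2 treatments differed was tested on all 8 libraries as the EBF2-OE effect minus the GSK-LSD1 effect. Of the 41 tested members 0 were called by edgeR, as were 0% of all 16558 genes, while 5 members had an unadjusted p under 0.05, beside 7.66% of all genes (4.34% with the fold limit). The largest difference was that of CLDN1, with a difference of −1.69 (SE 0.26, unadjusted p = 0.00016, edgeR adjusted p = 0.10). DESeq2 called CLDN1 alone of the members, at an adjusted p of 0.0021. Without the low-count filter, edgeR called CLDN1, ITGA2 and SNAI2 as lower and ITGB4 as higher. The other members with an unadjusted p under 0.05 were SNAI2 (−1.21), COL4A1 (0.53), VIM (0.43) and TIMP1 (−0.39). By edgeR with its filter, neither CLDN1 nor ITGA2 was thus shown to respond differently to the 2 treatments.

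The libraries of the overexpression experiment were examined pair by pair, because the members differed within its groups. Between the 2 Vector libraries 9 of 41 members were more than 1.5-fold apart, and between the EBF2-OE libraries 13, against 0 for both Vehicle and GSK-LSD1. Over all genes the shares were 19.4%, 21.8%, 8.18% and 8.19%. THBS1 (thrombospondin-1, a matricellular protein) was at 10.05 TPM in Vector replicate 2 and 39.5 TPM in replicate 3, and at 10.7 and 33.4 TPM in the EBF2-OE libraries of the same numbers. ITGA2 ran the other way, with 42.4 and 23.1 TPM in Vector and 44.9 and 12.1 TPM in EBF2-OE. PLAUR (53.9 and 25.5, then 44.8 and 20.9 TPM) and ITGB4 (101 and 55.4, then 117 and 51.4 TPM) were also higher in replicate 2 of each group. CDH1 and SNAI2, whose values are given above, were over 1.5-fold higher in replicate 3 of each group. For THBS1, PLAUR and ITGB4 each library was closer to the library of the same number in the other group than to the other library of its own group. What the replicate numbers stand for is not given in the sources used here.

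**Figure D4:**
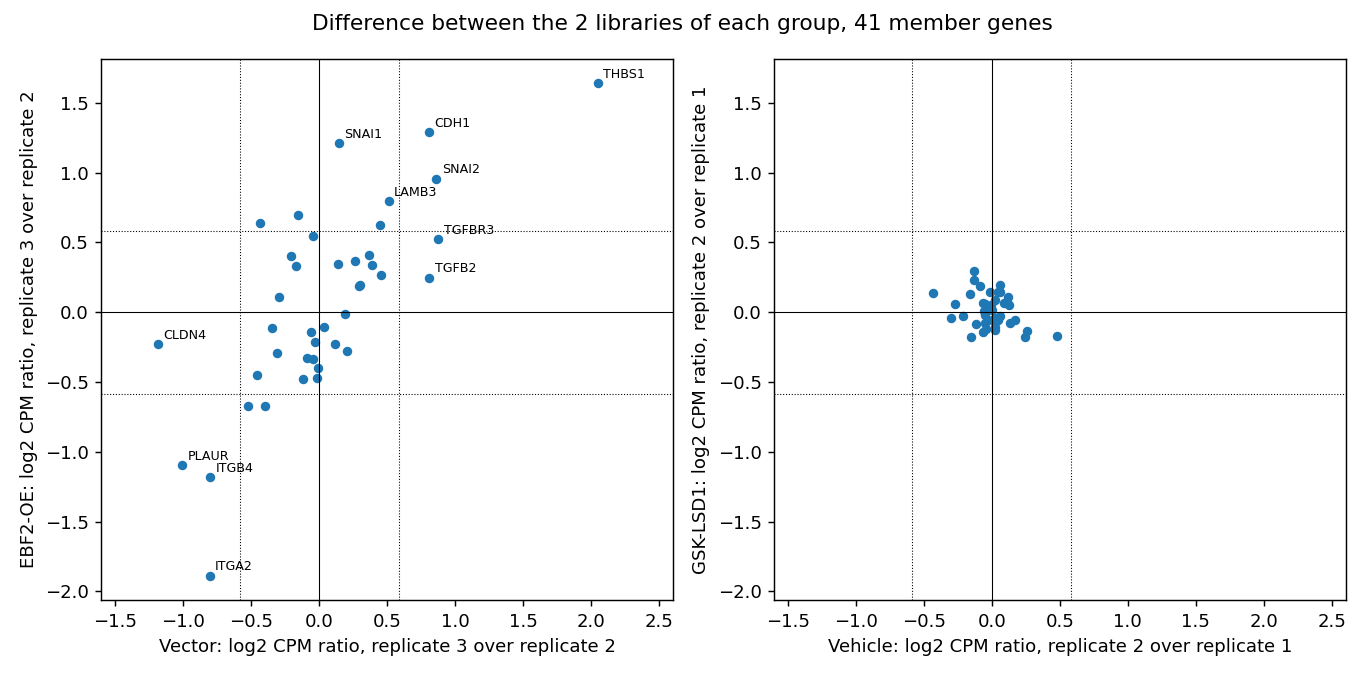
Ratio of the 2 libraries within each group for 41 member genes, as log2 of CPM (counts scaled to the library total), with dotted lines at 1.5-fold. Left, Vector (horizontal) against EBF2-OE (vertical), replicate 3 over replicate 2; right, Vehicle against GSK-LSD1, replicate 2 over replicate 1. On the left THBS1, CDH1, SNAI2, ITGA2, PLAUR and ITGB4 lie outside the dotted lines of both groups, and on the right every gene lies inside the dotted lines.

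Vector and Vehicle are both controls labelled as the same line, and they differed in these genes. By edgeR 8 of 42 tested members were higher in Vector and 3 lower, 26.2%, beside 16% of all 16019 genes tested (5.79% higher and 10.2% lower, and 21.7% at an unadjusted p with the fold limit). The presence of a vector, the mock treatment, the experiment and any difference in the stock of cells cannot be told apart here. The Vector libraries also enter the EBF2-OE comparison and the Vehicle libraries the GSK-LSD1 comparison, so no measure of likeness between comparisons is given. By adjusted p alone 16 of the 42 tested members passed, 11 higher and 5 lower, beside 26.8% of all genes (13.6% and 13.2%). The groups did not overlap for 18 higher and 15 lower members, 78.6%, beside 70.9% of all genes (35.6% and 35.3%). An unadjusted p under 0.05 was reached by 28 of the 42 tested members, beside 43.4% of all genes. The median log2 fold change was 0.051 over the members and 0.0023 over all genes.

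Of the 5 EMT factors, SNAI2, SNAI1 and ZEB2 were higher in Vector and TWIST1 lower. SNAI2 had a log2 fold change of 1.76 (SE 0.31, edgeR adjusted p = 0.017), SNAI1 of 1.14 (SE 0.11, adjusted p = 0.0070) and ZEB2 of 0.85 (adjusted p = 0.026). ZEB2 was at 3.35 and 4.35 TPM in Vector and 2.04 and 2.18 TPM in Vehicle. For SNAI1 the Vector libraries stood at 58.6 and 61.6 TPM and the Vehicle libraries at 26.0 and 27.7 TPM. TWIST1 was at 11.6 and 8.21 TPM against 18.9 and 15.7 TPM (−0.83, edgeR adjusted p = 0.042). Of the integrins, ITGA2 (1.83), ITGA5 (0.81; 262 and 173 against 126 and 118 TPM) and ITGA6 (0.66; 53.8 and 47.2 against 31.8 and 31.2 TPM) were higher, as was the receptor TGFBR1 (0.68; 17.4 and 19.1 against 10.6 and 11.9 TPM).

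The junction genes differed in opposite directions. CLDN1 was higher in Vector (0.93, SE 0.20, edgeR adjusted p = 0.027), and CLDN7 was lower, at 53.8 and 45.5 TPM against 117 and 121 TPM (−1.28, SE 0.10, adjusted p = 0.0062). PLAU was the third member lower in Vector, at 5.62 and 4.32 TPM against 9.91 and 11.4 TPM (−1.12, edgeR adjusted p = 0.015). Several members did not overlap and differed by more than 1.5-fold but missed the adjusted limit: CDH1 (−0.96, with 0.369 and 0.614 against 0.789 and 1.12 TPM), ITGB4 (−0.66), LAMB3 (−0.60, with 45.7 and 62.0 against 84.0 and 77.0 TPM) and PLAUR (0.81). OVOL1 also missed the adjusted limit, at 0.399 and 0.203 TPM in Vector and 0.057 and 0 TPM in Vehicle, at the limit of detection. Its log2 fold change was 3.30 (interval 0.95 to 5.65, edgeR adjusted p = 0.052), from 17 and 10 counts against 3 and 0. Its opposite-strand partner OVOL1-AS1 had 9 and 7 counts in Vector and 0 and 0 in Vehicle, and its part was not tested. CLDN3, which was not tested, was also near that limit, at 0.101 and 0 TPM in Vector and 0.327 and 0.981 TPM in Vehicle. None of the 4 mesenchymal genes and none of the 7 collagen and matricellular genes was called by edgeR, with CDH2, TGFBI, COL1A1 and COL12A1 at an unadjusted p under 0.05. Without Vehicle replicate 1 the calls among members were 0 higher and 0 lower, with 12 calls over all genes in place of 2558, and without Vehicle replicate 2 they were 0 and 1, with 235 over all genes. Without Vector replicate 2 they were 8 and 5, ITGA5 losing its call, and without Vector replicate 3 they were 10 and 7. With any 1 library left out, the log2 fold change of SNAI1 ranged from 1.08 to 1.21 and that of CLDN7 from −1.37 to −1.18, while ITGA5 ranged from 0.52 to 1.06, SNAI2 from 1.27 to 2.12 and ITGA2 from 1.36 to 2.19.

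**Figure D5:**
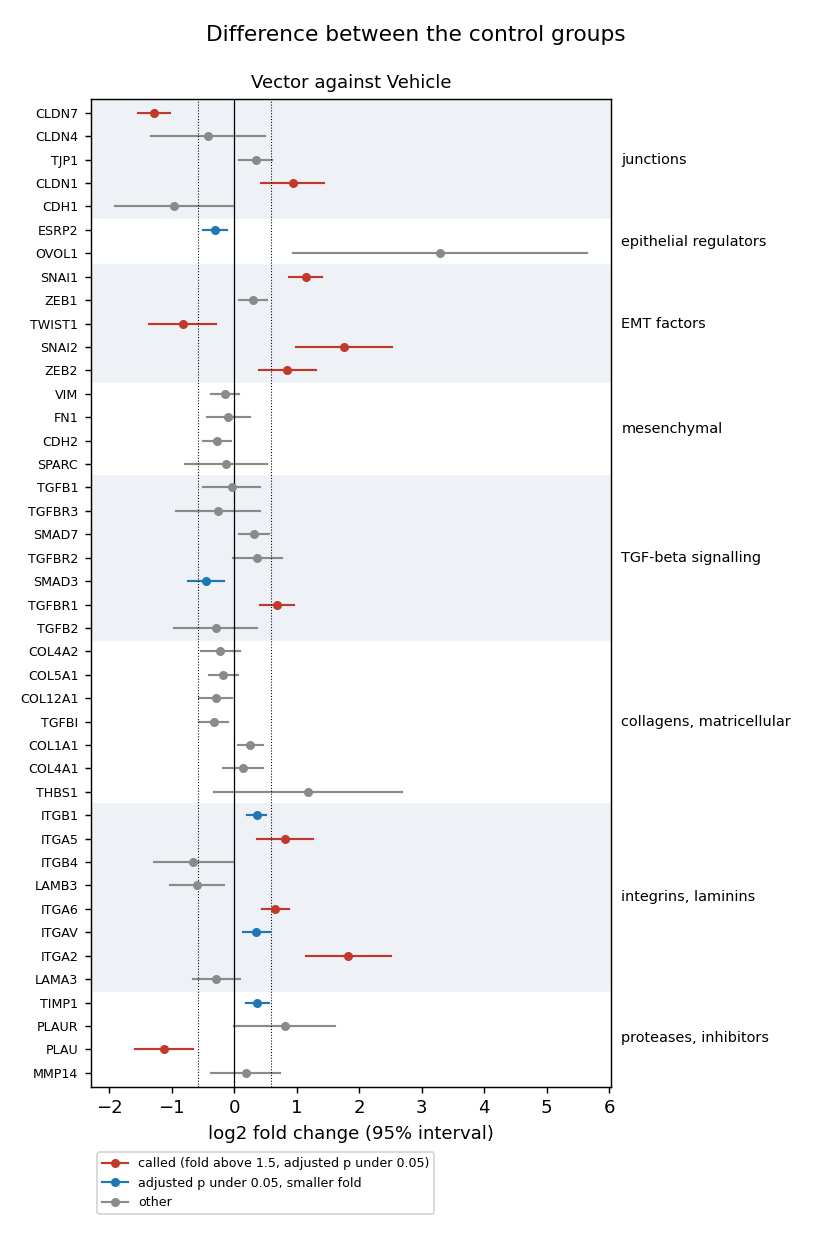
log2 fold change of Vector against Vehicle with its 95% interval for the 42 tested members, by role, with dotted lines at a 1.5-fold change. The 8 members called higher include SNAI1, SNAI2, ZEB2 and 3 integrin alpha chains, and the 3 called lower are CLDN7, TWIST1 and PLAU (red).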

How the data were processed

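RNA sequencing of 8 SW1990 libraries was analysed from raw read counts per gene deposited by the authors, who aligned reads to hg38 with HISAT2 and counted them with HTSeq (versions not given in the sources used here). The deposited TPM values, which the authors scaled to gene length and library total, gave the printed levels. Columns that hold the authors' group means and comparisons were not used. The 49 members, the wider lists and the tests were chosen with earlier results of these data known. Counts were filtered (edgeR filterByExpr, minimum count 10), scaled by TMM and tested two-sided with edgeR 4.0.16 (quasi-likelihood, R 4.3.3), with Benjamini-Hochberg adjustment over all genes tested and a call at a fold above 1.5 and adjusted p under 0.05. Fold changes come from the scaled counts, so they differ slightly from ratios of TPM. All members are named, and those called, or separated by over 1.5-fold without overlap, have each library's value. From each wider list up to 5 called genes with the largest change were taken. DESeq2 1.42.0, limma 3.58.1 on log2(CPM + 1), other filters and scaling, the replicate number as a block and leaving out each library were alternatives. The test was also run on simulated counts of independent libraries. That run cannot show how it behaves where libraries are technical or share a batch. Motifs were searched in RefSeq promoter windows. Protein sequences were not used here.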

Additional observations from a re-analysis of the deposited data

How the results depend on the processing

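After GSK-LSD1, CLDN1 and ITGA2 were the members called higher under DESeq2, limma, DESeq2 size factors, both other filters and an unadjusted p. With all 8 libraries in 1 fit 1 member was higher, ITGA2 losing its call, and with no fold limit 8 were higher and 7 lower. Leaving out 1 library gave 2 to 3 higher and 0 to 1 lower members. In EBF2-OE against Vector every alternative, leaving out libraries included, gave 0 and 0, and SNAI1 ranged from −0.34 (without EBF2-OE replicate 3) to 0.88 (without EBF2-OE replicate 2). In Vector against Vehicle the lower members numbered 5 with DESeq2, 5 without the filter, 5 with no fold limit and 6 at an unadjusted p, and leaving out 1 library gave 0 to 10 higher and 0 to 7 lower members. The cause was not tested. For the difference of effects DESeq2 called 1 member lower, and edgeR without the filter called 1 higher and 3 lower. With the replicate number as a block, the counts of called members stayed at 2 and 0 after GSK-LSD1 and at 0 and 0 in EBF2-OE, while calls over all genes went from 734 to 763 and from 0 to 5. Same-numbered libraries deviated together in Vector and EBF2-OE (correlation 0.35 over 15560 genes, 0.74 over 41 members) and not in Vehicle and GSK-LSD1 (−0.014 over 16059 genes, −0.32 over 41 members). The labels do not say what a number marks and each comparison holds only 2 pairs, so a pairing is not established. No paired analysis was possible for Vector against Vehicle because they share only 1 replicate number. In the bases before the start only, the E-box was in 21.4% of member windows and the palindrome in 2.86%. The comparison of protein starts was not run, since no protein sequences were at hand. With 2 libraries a group, a change of 1.5-fold was within the interval of most members in EBF2-OE.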

Other observations

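Some genes of the wider lists differed between the control groups. Of 34 tested epithelial genes, 1 was higher and 8 lower in Vector than in Vehicle by edgeR, 26.5%, and the other 25 were not called. Of all genes 16% were called, 5.79% higher and 10.2% lower, and without Vehicle replicate 1 the calls over all genes numbered 12 in place of 2558. TJP3, a junction scaffold related to TJP1, was at 2.65 and 1.502 TPM in Vector and at 34.8 and 29.2 TPM in Vehicle (log2 fold change −3.98, SE 0.26, edgeR adjusted p = 0.0058). It was at 1.119 and 3.63 TPM in EBF2-OE and at 41.2 and 45.3 TPM in GSK-LSD1, so the 4 libraries of one experiment all lay far below the 4 of the other. CRB3, an apical polarity protein, was also lower in Vector (−1.54).

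The shares below stand beside the same 16% of all genes (5.79% higher and 10.2% lower). Of 43 tested matrix genes 4 were higher and 10 lower in Vector (32.6%). Collagen cross-linking enzymes differed in sign, with LOX higher (1.097) and LOXL1 (−1.54) and LOXL4 (−1.47) lower. Of 33 TGF-beta genes 4 were higher and 4 lower (24.2%), among the latter LTBP3 (−1.42). Of 22 protease genes 2 were higher and 4 lower (27.3%), and SERPINE2, an inhibitor of serine proteases, had the largest positive value of those called (1.53). Of 13 other EMT factors 1 was higher, SOX9 (1.76), and 2 lower, TWIST2 (−1.27) and SOX4 (−0.99), in all 23.1%, and of 6 integrins 1 was lower, ITGB2 (−1.01), 16.7%. The vector, the mock treatment, the experiment and any difference in the stock of cells cannot be told apart in these values.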
